A study of Mus musculus with 25 samples.

Results

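The data described here are the 5 normal-diet libraries of a series of 25, taken on their own as a baseline for mouse hepatocytes; they were chosen by their labelled diet, and no measured value entered the choice. They came from C57BL/6 mice on a normal diet with 0 weeks on the NASH-inducing diet that the other 20 libraries received for various lengths of time, and those 20 are not used here. Hepatocytes were freed by collagenase perfusion of the liver and collected by slow centrifugation, and 500000 cells sorted by flow cytometry were lysed for each sample. The labels do not give the sort gate, the age and sex of the mice or the time of day of collection, and they do not say whether each library is a separate animal, so the spread between libraries may be partly technical. The libraries are called 1 to 5 after their labels, and these numbers carry no order.

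Polyadenylated RNA was counted from its 3' end with QuantSeq, a method in which each transcript gives about one tag whatever its length, so levels are compared between genes as counts per 1000000 (CPM, after scaling for RNA composition) without division by length. The libraries held 5987244, 6204250, 7310440, 7985100 and 5281143 counts. At least 1 count was found for 16842 of 37085 symbols, and for 11904 of these in every library. The mean level reached 1 CPM for 10685 genes, 10 CPM for 5946, 100 CPM for 1093 and 1000 CPM for 103. Thinned to the smallest total, the libraries detected between 13582 and 14128 genes.

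Hepatocytes are the main cell type of the liver by mass. They make most plasma proteins, run the urea cycle, build and burn lipids, turn cholesterol into bile acids, and detoxify drugs through cytochrome P450 enzymes. These tasks are divided along the lobule, with urea and glucose production favoured near the portal vein and drug metabolism and glutamine synthesis near the central vein. Many of the genes are known to follow feeding, the circadian clock and pulses of growth hormone.

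Transcripts of the mitochondrial genome, which encodes core subunits of the respiratory chain and the RNAs of the mitochondrial ribosome, took the largest share of counts of any single list. Their share was 21.7, 19.3, 23.4, 23.8 and 27.4% of all counts in libraries 1 to 5, a mean of 23.1% ± 3.00 (SD, n = 5; all later ± values are SDs over the same 5 libraries). The 2 ribosomal RNAs held 10.6, 8.90, 10.2, 10.1 and 16.6%, and library 5 stood above the other 4. Within that pair, mt-Rnr2, the large-subunit RNA, was at 75097, 58172, 70703, 67805 and 123594 CPM, and mt-Rnr1, the small-subunit RNA, at 30899, 26918, 33123, 31432 and 51394 CPM. The mitochondrial mRNAs had a narrower range of 10.4 to 13.7% of counts and were not high in library 5. The most abundant of them in the count table coded for complex I and complex III subunits. They were mt-Nd2 at 41168 ± 4817 CPM, mt-Nd4 at 36133 ± 4994 CPM, mt-Cytb at 17619 ± 3429 CPM and mt-Nd1 at 12675 ± 1879.6 CPM. Levels inside this genome were very unequal in the count table. The cytochrome oxidase subunit mt-Co1 was at 3027 ± 395 CPM and the complex I subunit mt-Nd3 at 31.9 ± 12.3 CPM, mt-Atp6 had 6 counts in the 5 libraries together, and mt-Nd4l, mt-Co2, mt-Co3 and mt-Atp8 were listed with 0 counts in all 5. A count of 0 allows up to 0.0913 CPM over the libraries together, for counting error only. The counting tool and annotation are not known here, and whether these 0 counts reflect the RNA level was not tested. The order of the mitochondrial mRNAs is therefore that of the count table. Overlapping neighbours in this compact genome can share reads, so the division of counts among its genes is uncertain.

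Among nuclear-encoded genes, the baseline was led by secreted proteins. The 5 largely secreted lists were plasma carriers and iron proteins, apolipoproteins and lipoprotein assembly, serpins, major urinary proteins, and complement and coagulation factors. Their 107 genes, not all of them secreted products, held 27.0% ± 1.17 of counts, from 25.4% to 28.6%. They supplied 18 of the 20 and 40 of the 100 most abundant nuclear-encoded genes. Albumin, Alb, the main carrier protein of plasma, ranked first at 59637, 55198, 53255, 60858 and 61163 CPM in libraries 1 to 5. Apoe, an apolipoprotein that directs lipoprotein remnants to their receptors, ranked second at 19874, 21171, 20411, 20348 and 19446 CPM. Both kept close to their means in every library, with coefficients of variation (CV, the SD divided by the mean) of 0.0617 and 0.0319. The protease inhibitors Serpina1e (12736 ± 1776 CPM) and Serpina3k (12043 ± 1420.4 CPM) came next. They were followed by the fetuin Ahsg (11623 ± 909 CPM), the thyroid hormone carrier Ttr (11200.5 ± 871 CPM), the major urinary protein Mup3 (10931 ± 805 CPM), and the HDL proteins Apoa1 (10309.7 ± 1381 CPM) and Apoa2 (8474 ± 1036 CPM). Ranks 10 to 12 were held by Serpina1c (8161 ± 748 CPM), the fibrinogen chain Fgb (8141 ± 1894 CPM) and the iron carrier Trf (7161 ± 869 CPM). The Serpina1 and Mup genes have near-identical copies, so their single-gene values are uncertain. Outside the secreted lists, Scd1, which makes monounsaturated fatty acids, held rank 17 at 4225, 3253, 11827, 4867 and 3155 CPM. It was far more variable than the secreted genes around it, with a CV of 0.664. Each library had 32.5% ± 2.65 of its counts in its 10 most abundant genes, and 35 to 59 genes sufficed for 50% of the counts.

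**Figure D1:**
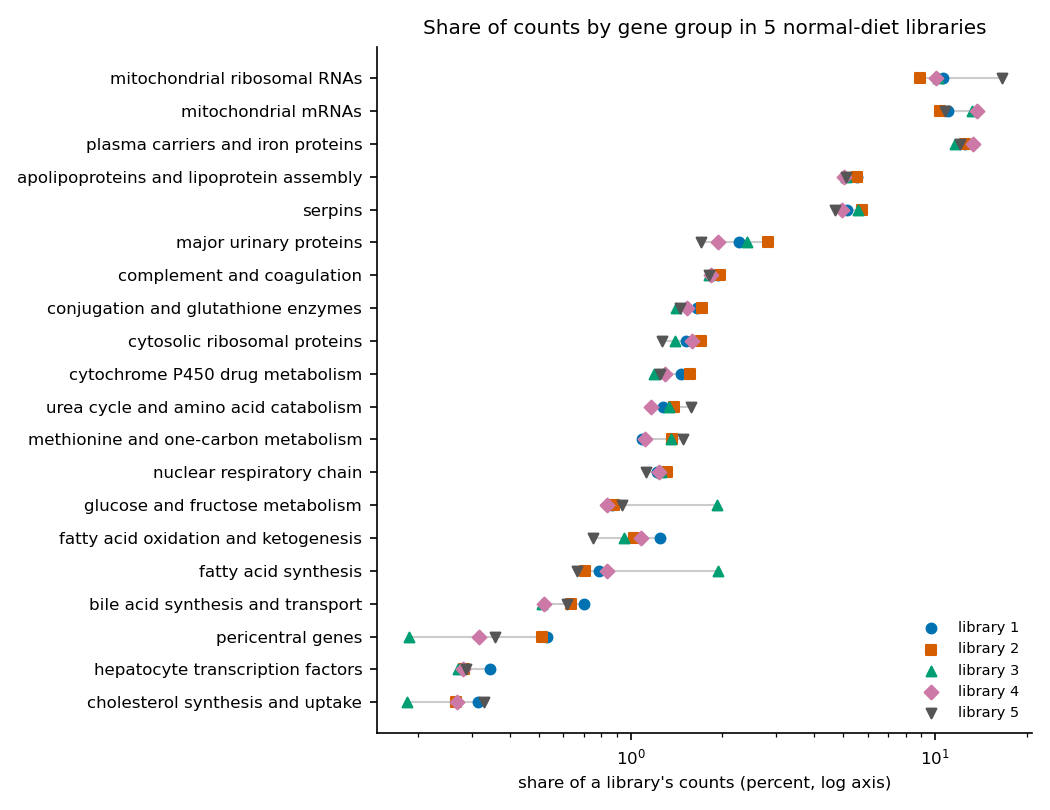
Share of each library's counts (percent, log axis) held by gene groups in the 5 normal-diet libraries, one symbol per library, with a grey line from the lowest to the highest. The 5 libraries lay close together for the nuclear respiratory chain and for secreted groups other than major urinary proteins, library 3 was highest by a wide gap for fatty acid synthesis and sugar metabolism and lowest for pericentral genes and cholesterol synthesis, and library 5 was highest for mitochondrial ribosomal RNAs.

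Metabolic groups took smaller shares, as the plot of shares shows. Conjugation and glutathione enzymes, which make drugs and reactive compounds soluble, held 1.55% ± 0.130. Cytochrome P450 enzymes of drug metabolism held 1.35% ± 0.155, led by Cyp2f2 at 2325 ± 295 CPM and Cyp3a11 at 2120.3 ± 583 CPM, and 30 of the 45 in the table reached 10 CPM. Urea cycle and amino acid breakdown held 1.35% ± 0.152, with arginase Arg1 at 1395 ± 355 CPM, tryptophan dioxygenase Tdo2 at 1317 ± 317 CPM and carbamoyl phosphate synthase Cps1 at 1153 ± 190.2 CPM. Methionine and one-carbon metabolism held 1.28% ± 0.173 with only 22 genes. Its leading members were Gnmt, which disposes of excess methyl groups, at 3592 ± 708 CPM, Mat1a, which makes S-adenosylmethionine, at 2487 ± 603 CPM, and Bhmt, which remakes methionine from homocysteine, at 2252 ± 586 CPM.

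Of the lipid and sugar groups, fatty acid oxidation and ketogenesis held 1.01% ± 0.181 of counts, with the fatty acid carrier Fabp1 at 4059 ± 1201 CPM. Fatty acid synthesis held 0.987% ± 0.536 and glucose and fructose metabolism 1.09% ± 0.468, both with large SDs that come from one library described below. The gluconeogenic enzyme Pck1 was at 1603 ± 327 CPM and G6pc, the last step of glucose release, at 656 ± 347 CPM. Bile acid synthesis and transport held 0.598% ± 0.0815, in which Cyp7a1, the rate-limiting enzyme of bile acid synthesis, was at 42.7 ± 18.2 CPM, against 1207 ± 401 CPM for the uptake transporter Slco1b2. Transcription factors were far less abundant. The 36 listed hepatocyte factors together held 0.294% ± 0.0293, with the fasting-linked factor Creb3l3 at 367 ± 43.8 CPM, Hnf4a, a master regulator of hepatocyte identity, at 273 ± 43.9 CPM, and Cebpa at 259 ± 40.96 CPM.

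The spread between libraries was small for most genes. Over the 5946 genes at 10 CPM or more the median CV was 0.139, with an interquartile range of 0.0975 to 0.196. The median was 0.155 at 10 to 30 CPM, where counting error accounted for 38.9% of the variance, and 0.144 above 1000 CPM, where it accounted for 0.253%. The edgeR estimate of the biological coefficient of variation had a median of 0.166 over 8922 genes. Highest and lowest library were at least 2-fold apart for 11.2% of the 5946 genes and at least 4-fold apart for 107 genes, or 1.80%. Without library 4 the last count was 67, the lowest of 67 to 90 when each library was left out, which also shrinks the range being measured.

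Some genes at 100 CPM or more were nearly equal in all 5 libraries. The membrane protein Tmem59, which had the smallest CV, was at 250.3, 255, 249.8, 250.4 and 254 CPM, a CV of 0.00985 that is below its counting error. Psmb1, a proteasome subunit, was at 130.2, 133, 127, 127 and 131 CPM, and Cfi, the complement protease factor I, at 312, 317, 306, 302 and 315 CPM. Subunits of the respiratory chain were also among the genes of smallest CV, including Ndufa1 of complex I (0.0211), Cox4i1 of complex IV (0.0234) and Uqcrq of complex III (0.0250). These smallest values depend on the scaling: with library size alone the CV was 0.0391 for Tmem59, 0.0458 for Psmb1, 0.0419 for Cfi and 0.0654 for Apoe. The 58 nuclear-encoded respiratory chain genes at 10 CPM or more had a median CV of 0.0778, the serpins 0.0831, ribosomal proteins 0.112, and complement and coagulation factors 0.115, all below the 0.139 of all genes. Hepatocyte lists with a median CV above 0.27 were female-biased liver genes (0.688, over only 6 members at 10 CPM), pericentral genes (0.400), immediate early and heat shock genes (0.339), major urinary proteins (0.337), clock genes (0.333), fatty acid synthesis (0.310), glucose and fructose metabolism (0.298), growth hormone and male-biased genes (0.291), cytochromes P450 (0.289) and cholesterol synthesis (0.275). Without library 3 the medians were 0.160 for fatty acid synthesis, 0.154 for glucose and fructose metabolism and 0.158 for cholesterol synthesis. Among markers of other cell types the median was 1.03 for 5 monocyte, macrophage and dendritic genes, 0.594 for Kupffer cells and 0.573 for sinusoidal endothelial cells, but 0.271 for 3 stellate genes.

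**Figure D2:**
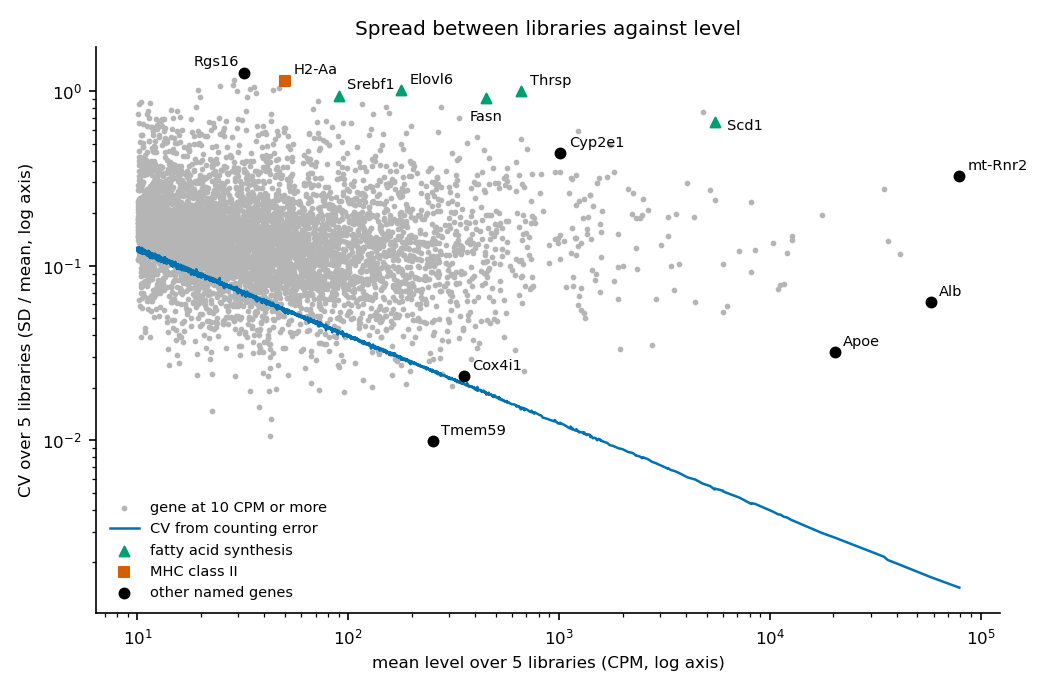
CV over the 5 libraries against mean level (both log axes) for 5946 genes at 10 CPM or more, with the CV that counting error alone would give as a line. Lipogenic genes and H2-Aa lie near the upper edge, Alb and Apoe low at high levels, and Tmem59 under the counting line with a CV of 0.00985.

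Each library was then set against the median of the other 4, over the 5946 genes at 10 CPM or more. Library 1 was at least 2-fold above for 29 (0.488%) of them and at least 2-fold below for 59 (0.992%). For library 2 these counts were 51 (0.858%) and 37 (0.622%), for library 3 72 (1.21%) and 68 (1.14%), for library 4 73 (1.23%) and 35 (0.589%), and for library 5 31 (0.521%) and 107 (1.8%). These shares are the background for every count of list members at least 2-fold above or below, which is taken over the members at 10 CPM or more. Counts of members highest or lowest in a library are taken over those at 1 CPM or more, with the share among all 10685 genes at that level beside them. The lists and their members were chosen with earlier results of these data known, so counts above these shares are not independent support. With 1 library on one side, none of these contrasts has a test. In pairs, by the number of genes at least 2-fold apart, libraries 1 and 5 were closest with 79 (1.33%) and libraries 3 and 5 farthest with 267 (4.49%). The order depended on the measure. By the median absolute log2 difference, libraries 2 and 4 were closest (0.165) and libraries 2 and 5 farthest (0.248).

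**Figure D3:**
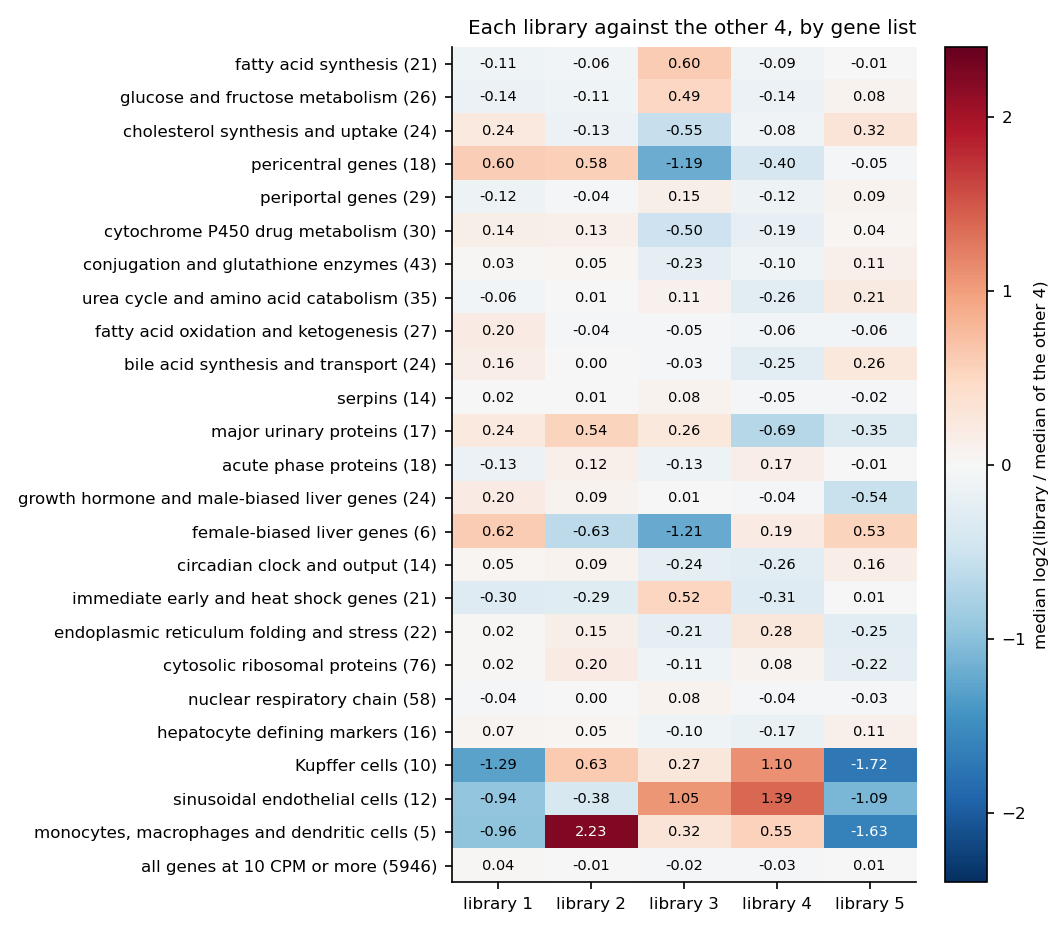
Median log2 ratio of each library to the median of the other 4 (pseudocount 1 CPM), by gene list, with the number of members at 10 CPM or more in brackets; red is higher and blue lower. Library 3 is high for fatty acid synthesis (0.60) and low for pericentral genes (-1.19), libraries 1 and 5 are low and 4 is high for Kupffer and endothelial markers, and the median over all genes stays near 0.

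Library 3 had a higher level of genes that turn sugar into fat. In the fatty acid synthesis list, 8 of 21 members were at least 2-fold above the other libraries and 0 below, against the background of 1.21% above. Fatty acid synthase, Fasn, was at 243, 286, 1189, 226 and 314 CPM in libraries 1 to 5, 4.49-fold above the median of the other 4. Elovl6, which lengthens its products, was at 117, 85.1, 503, 91.3 and 97.03 CPM. The lipogenic regulator Srebf1, whose protein switches on this pathway, was at 31.4, 56.1, 238, 41.7 and 84.3 CPM. In all 3 genes library 3 lay above the other 4, which lay together for Fasn and Elovl6 and were spread from 31.4 to 84.3 CPM for Srebf1. Library 3 was also above the rest for Thrsp, a partner of the lipogenic enzymes (1832 CPM against 272 to 462), for Acly, which makes cytosolic acetyl-CoA (745 against 185 to 309), and for Acaca, which makes malonyl-CoA (100.2 against 25.8 to 32.2). Scd1 reached 11827 CPM against 3155 to 4867, and malic enzyme Me1, a source of NADPH, 225 against 98.1 to 117. Left without library 3, the CV was 0.1497 for Fasn and 0.142 for Elovl6, near that of all genes, against 0.916 and 1.02 with it.

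Some genes of sugar metabolism were also high in library 3. Of the glucose and fructose list 5 of 26 members were at least 2-fold above in library 3 and 1 was below. G6pc, of glucose release, was at 558, 281, 1159, 839 and 443 CPM, 2.32-fold above the others, with library 4 next. Ketohexokinase, Khk, which phosphorylates fructose, was at 186, 192, 539.6, 189.6 and 218 CPM, and triokinase, Tkfc, a later enzyme of the same route, at 183, 179.5, 672, 167 and 167 CPM. For Khk and Tkfc library 3 lay above the other 4, which were close to each other, with a CV of 0.0481 for Tkfc without library 3. The sterol exporter Abcg5 was at 76.97 CPM in library 3 against 16.8 to 28.9. Rgs16, a G protein regulator known to respond to feeding state in liver, was at 23.6, 10.3, 103, 0.738 and 22.5 CPM, highest in library 3 and lowest in library 4.

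Pericentral genes were lower in library 3. Of the list, 13 of 18 members were at least 2-fold below the other libraries against a background of 1.14%, and the summed level was 5291, 4884, 1899, 3109 and 3778 CPM in libraries 1 to 5. The ethanol- and drug-oxidizing enzyme Cyp2e1 was at 1539, 1341, 423, 749.9 and 1017 CPM and Cyp1a2, which oxidizes caffeine, at 687, 489, 146, 356 and 513 CPM. Both genes were lowest in library 3, and library 4 was second lowest. The glutamate transporter Slc1a2 was at 74.9, 82.3, 25.6, 37.04 and 45.2 CPM, and Tbx3, a pericentral transcription factor, at 53.6, 15.3, 3.89, 12.4 and 11.4 CPM. Glutamine synthetase, Glul, restricted to the last cells around the central vein, was at 533, 632, 268, 360.5 and 362 CPM and did not reach a 2-fold difference. Libraries 1 and 2 were the highest for this zone. Of the periportal list 4 of 29 members, Tkfc and G6pc among them, were at least 2-fold above in library 3 and 0 below. Over all cytochromes P450 of drug metabolism, 11 of 30 were at least 2-fold below in library 3 and 1 was above. Of the 11 below, 5 also stand in the pericentral list. The summed level of the P450 list fell less, to 12122 CPM in library 3 against 12747 to 14955 in the others. Its most abundant member, Cyp2f2, was highest in library 3 at 2824 CPM. Ornithine aminotransferase, Oat, a pericentral enzyme outside the P450 family, was at 95.6 CPM against 175 to 306, and the coumarin hydroxylase Cyp2a5 at 38.8 against 79.3 to 147. Members of the Cyp2c family among the 11 share sequence with near copies and are uncertain singly.

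Cholesterol synthesis went the other way from fatty acid synthesis in library 3, with 8 of 24 members at least 2-fold below and 0 above. The early enzyme Hmgcs1 was at 579, 416, 176, 466 and 682 CPM and the later enzyme Msmo1 at 202, 183, 65.02, 182 and 209 CPM. In Msmo1, libraries 1, 2, 4 and 5 were nearly equal and library 3 was lower. Mevalonate kinase, Mvk, was at 6.39 CPM against 14.3 to 20.7. The fatty acid hydroxylases Cyp4a10 and Cyp4a14, known targets of the nuclear receptor PPAR alpha, had their lowest levels in library 3 and their highest in library 5. Their values were 85.8, 38.7, 9.59, 92.3 and 129.9 CPM for Cyp4a10 and 22.95, 11.2, 3.47, 51.1 and 77.1 CPM for Cyp4a14, with no grouping into high and low libraries. Of the iron hormone genes, Hamp was at 623, 633, 290.2, 703 and 630.4 CPM, low in library 3 alone, and Hamp2 at 211, 32.4, 21.5, 177 and 215 CPM, low in libraries 2 and 3; the 2 are close paralogs.

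Beside these library 3 values, its summed hepatocyte markers were the lowest of the 5 by a small margin (112502, 105042, 100361, 110950.0 and 112279 CPM) and its endothelial markers were high, with 8 of 12 at least 2-fold above. The endothelial sum was 758 CPM in library 3 and 978 CPM in library 4. The part of other cells in the library 3 values was not tested.

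The genes highest in library 2 relative to the others included class II histocompatibility genes and the GTPase Igtp. The class II histocompatibility genes, which present peptides to helper T cells and are expressed mainly by dendritic cells, macrophages and B cells, are described first. H2-Aa was at 13.97, 149, 35.98, 42.95 and 8.17 CPM, H2-Ab1 at 13.3, 95.4, 25.8, 27.8 and 8.37 CPM and H2-Eb1 at 10.3, 86.9, 19.6, 20.9 and 5.58 CPM. In each of these 3 genes library 2 lay far above the other 4, with libraries 1 and 5 lowest. Their invariant chain partner Cd74 followed with a smaller gap, at 12.3, 45.9, 22.6, 25.97 and 7.17 CPM. Igtp, an interferon-inducible GTPase, was at 16.3, 82.6, 14.2, 24.1 and 11.95 CPM, 5.42-fold above the others. Related genes picked for display after their values were seen were the GTPase Irgm2 (56.7 CPM against 13.8 to 24.98) and the immunoproteasome subunit Psmb8 (73.7 against 24.6 to 33.9).

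The promoters of 4 genes are shown, picked from the genes above that were high together in library 2. H2-Ab1 and Cd74 had no entry among the RefSeq promoters and Psmb8 is not shown, so the 4 do not stand for the whole group. Each promoter shown is the stretch from 100 bases before to 50 bases after the RefSeq transcript start on the gene's own strand (RefSeq table, build GRCm38.p6). H2-Aa lies at chr17:34287774-34287923 on the minus strand and H2-Eb1 at chr17:34305767-34305916 on the plus strand, and capitals mark the Y box CTGATTGG.
H2-Aa: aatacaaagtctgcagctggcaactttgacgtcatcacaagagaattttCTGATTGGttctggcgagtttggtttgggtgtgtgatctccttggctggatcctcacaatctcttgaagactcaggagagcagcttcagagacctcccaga
H2-Eb1: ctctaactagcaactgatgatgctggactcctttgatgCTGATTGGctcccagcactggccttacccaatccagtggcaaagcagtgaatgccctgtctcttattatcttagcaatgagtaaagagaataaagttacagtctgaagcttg
Igtp lies at chr11:58199456-58199605 and Irgm2 at chr11:58214877-58215026, both on the plus strand, and capitals mark the patterns TTCNNNGAA and GAAANNGAA.
Igtp: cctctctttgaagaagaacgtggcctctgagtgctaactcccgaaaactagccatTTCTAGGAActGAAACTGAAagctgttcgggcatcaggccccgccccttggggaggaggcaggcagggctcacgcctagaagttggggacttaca
Irgm2: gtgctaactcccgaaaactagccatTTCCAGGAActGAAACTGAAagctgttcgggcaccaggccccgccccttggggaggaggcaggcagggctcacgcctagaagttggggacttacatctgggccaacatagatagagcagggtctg
The Y box, an element of class II promoters bound by NF-Y, began 51 bases before the start in H2-Aa and 62 before it in H2-Eb1. TTCNNNGAA, a palindromic element known from interferon-responsive promoters, began 45 bases before the start in Igtp and 75 in Irgm2, and GAAANNGAA, part of an interferon response element, began at 34 and 64, without overlap between the 2 patterns. The Igtp and Irgm2 windows match each other at 118 of 120 aligned bases when offset by 30, with a longest identical run of 61. Searched on both strands over the 300-base windows of 32851 promoters, CTGATTGG occurred in 4.10%, TTCNNNGAA in 8.30% and GAAANNGAA in 8.56%. These matches are letters in a window and were not tested as binding sites.

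Some acute phase and major urinary protein genes were also high in library 2. The serum amyloid genes, secreted by hepatocytes in inflammation, were at 99.1, 356, 154, 113 and 34.9 CPM for Saa1, 20.3, 132, 39.7, 30.9 and 11.8 CPM for Saa2 and 6.49, 31.6, 20.3, 6.28 and 7.37 CPM for Saa3. Library 2 was highest for all 3, and library 5 was lowest for Saa1 and Saa2; the copies share sequence, so their division is uncertain. The acute phase list as a whole did not follow them, with 3 of 18 members at least 2-fold above and a median log2 ratio of 0.12. Mup9 was at 78.01, 278, 131, 44.6 and 47.4 CPM and Mup20, the urinary pheromone protein darcin, at 1087, 2408, 2893, 1119 and 1194 CPM, high in libraries 2 and 3 together. Mup11 ran from 3683 to 7071 CPM with its lowest levels in libraries 4 and 5. Ribosomal protein genes reached their highest level in library 2 for 46 of 77 members (19.7% of all genes) and their lowest in library 5 for 48 of 77 (24.3% of all genes), but with a median log2 ratio of only 0.20 in library 2 and no member 2-fold away.

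The class II genes and Cd74 are themselves 4 of the 19 monocyte, macrophage and dendritic markers, and that whole list summed to 71.4, 425, 145, 171 and 50.6 CPM in libraries 1 to 5. Its other 15 members summed to 21.5, 47.3, 40.7, 53.3 and 21.3 CPM, with libraries 2 and 4 highest. Of the whole list, 9 members reached 1 CPM, and 6 of these, the 4 named genes included, were highest in library 2 (19.7% of all genes). Only 5 of the 19 reached 10 CPM, the same 4 among them, so the sum of the others rests on low levels. Kupffer markers summed to 589 CPM in library 2 and 716 CPM in library 4. The proliferation gene Top2a was at 1.83, 13.3, 1.11, 8.98 and 0.797 CPM, highest in library 2 and next in library 4. The part of other cells in the library 2 values was not tested.

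**Figure D4:**
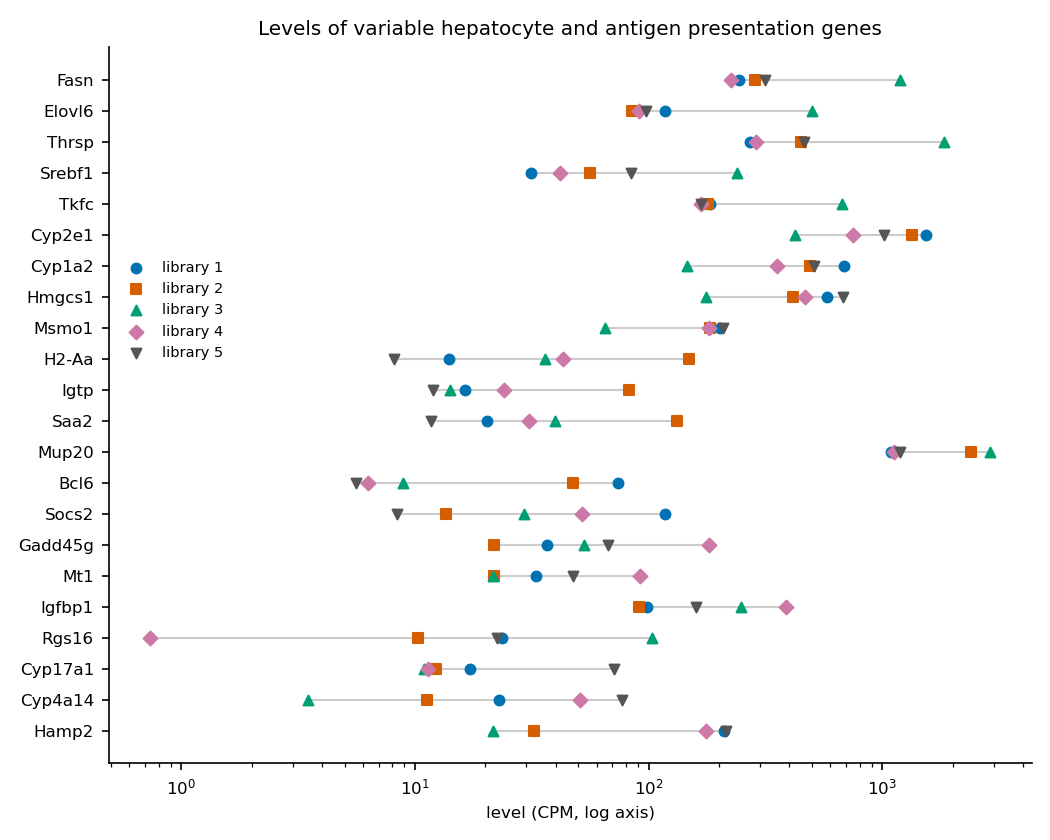
Levels (CPM, log axis) of 22 named genes in the 5 libraries, one symbol per library. Library 3 lies apart at the high end for Fasn, Elovl6, Thrsp and Tkfc and at the low end for Msmo1, library 2 at the high end for H2-Aa, Igtp and Saa2, and library 5 for Cyp17a1, while Cyp4a14 and Socs2 are spread out.

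Genes that follow growth hormone peaked in different libraries. The feedback inhibitor Socs2 was at 117, 13.6, 29.2, 51.7 and 8.37 CPM and the related inhibitor Cish at 2.83, 1.39, 14.03, 23.5 and 10.4 CPM, with Socs2 highest in library 1 and Cish in library 4. Bcl6, a repressor of sex-biased liver genes, was at 73.9, 47.6, 8.89, 6.28 and 5.58 CPM and split the libraries into 2 high and 3 low. Igf1, the main hormone made by the liver under growth hormone, varied little, at 1514, 1059, 1187, 1243 and 1328 CPM. Cyp2c40, counted among the female-biased genes, was at 95.1, 13.3, 5.14, 38.9 and 30.3 CPM, highest in library 1. Of the 24 growth hormone and male-biased genes at 10 CPM or more, 4 were at least 2-fold below in library 5 and 0 above. In libraries 1 to 4 respectively, 3, 3, 2 and 2 of them were above and 1, 2, 2 and 1 below. The Y-linked genes Ddx3y (63.95 to 103 CPM) and Eif2s3y (13.1 to 20.7 CPM) were present in every library, Xist was at 0.308 ± 0.317 CPM, and 12 of the 28 female-biased liver genes had 0 counts in all 5.

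Other genes had their highest level in library 4. Gadd45g, a stress sensor, was at 36.9, 21.9, 53.1, 181 and 66.7 CPM, and the metal-binding proteins Mt1 and Mt2 were at 32.9, 21.7, 21.7, 91.8 and 47.6 CPM and 8.82, 8.17, 8.06, 29.3 and 11.4 CPM. In these 3 genes library 4 was the highest and library 5 came next. Igfbp1, an IGF-binding protein lowered by insulin, was at 98.8, 90.6, 248, 389 and 160.2 CPM, also highest in library 4. Folding genes of the endoplasmic reticulum were highest in library 4 for 11 of 26 members (19.4% of all genes) and lowest in library 5 for 11 (24.3% of all genes). The chaperone Hspa5 was at 1347, 1887, 1230.1, 2082 and 1029.9 CPM and the folding factor Creld2 at 20.96, 47.2, 18.5, 56.4 and 6.97 CPM, and 5 of 22 members were at least 2-fold below in library 5. Library 4 also had the highest Kupffer and endothelial sums, and their part in these values was not tested.

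Many genes of amino acid metabolism had their highest level in library 5. Libraries 1 and 5 were both low for Kupffer and endothelial markers, and the part of other cells in these values was not tested. Urea cycle and amino acid catabolism genes were highest in library 5 for 23 of 37 members (22.5% of all genes) and lowest there for 0 (24.3% of all genes). The median log2 ratio in library 5 was a modest 0.21, with 0 members 2-fold above. In library 1, 1 of the 37 members was highest (21.1% of all genes). Argininosuccinate synthase, Ass1, was at 604, 571, 711, 645 and 1178 CPM and Arg1 at 1289, 1330.1, 1379, 1003 and 1974 CPM, each highest in library 5. Cyp17a1, a steroid hydroxylase, was at 17.1, 12.3, 10.98, 11.3 and 71.1 CPM, 6.01-fold above the median of libraries 1 to 4, which lay together. The transcription factor Foxq1 was at 33.9, 22.04, 30.98, 127 and 126 CPM, high in both 4 and 5. Fatty acid oxidation genes were highest in library 1 for 17 of 34 members (21.1% of all genes), by a modest median log2 ratio of 0.20 with 0 members 2-fold above. Of these genes, Fabp1 was at 5654, 3808, 3874, 4585 and 2371 CPM, lowest in library 5.

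Clock and immediate early genes also differed between libraries. The clock repressor Nr1d1 was at 39.4, 25.1, 28.2, 9.85 and 36.7 CPM, lowest in library 4, and its target Arntl, which encodes the clock activator Bmal1, at 7.15, 6.16, 4.58, 10.3 and 7.37 CPM, highest in library 4. Per2, another clock repressor, was at 4.32, 12.9, 16.7, 3.08 and 5.78 CPM, with libraries 1, 4 and 5 below 2 and 3. Dbp, a strongly rhythmic output gene, was at 0 to 0.925 CPM, at most a few counts in a library, and Clock was steady at 22.8 to 33.9 CPM. The activity-induced factors Egr1 and Fos were at 97.3, 81.2, 191, 50.1 and 208 CPM and 30.6, 46.2, 78.1, 30.5 and 89.1 CPM, both high in libraries 3 and 5, and Jun was at 156, 141, 268, 129 and 212 CPM with the same 2 libraries highest. Sampling and handling times are not in the labels.

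The labelled cell type was checked against its defining markers. All 16 hepatocyte markers exceeded 10 CPM in the mean, and their sum varied with a CV of 0.0494. Beyond Alb and Ttr they included prothrombin F2 at 1309 ± 70.1 CPM and the asialoglycoprotein receptor Asgr1 at 628 ± 68.2 CPM. The 144 markers of other cell types together took 0.0883, 0.181, 0.173, 0.226 and 0.0680% of counts in libraries 1 to 5. These libraries are bulk samples, in which fewer cells of a type and less RNA per cell cannot be told apart, and some of the 144, such as Sox9 and Dcn, are not specific to one cell type in liver.

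Kupffer cells, the resident macrophages of the sinusoid, and sinusoidal endothelial cells, which line it, gave the clearest traces. Kupffer markers summed to 221, 589, 516, 716 and 187 CPM and endothelial markers to 298, 417, 758, 978 and 251 CPM. Libraries 1 and 5 were low for both, and library 4 was highest. The Kupffer-specific lectin Clec4f was at 14.5, 39.1, 40.2, 58.1 and 11.6 CPM, the secreted macrophage protein Cd5l at 28.6, 125, 119, 122 and 24.7 CPM and the complement component C1qa at 13.8, 48.4, 29.04, 57.6 and 8.17 CPM. The macrophage receptors were lowest in library 5 and highest in library 4, with Csf1r at 24.95, 63.6, 47.7, 79.7 and 13.5 CPM and Vsig4 at 11.6, 30.7, 31.3, 47.1 and 8.57 CPM. In libraries 1 and 5 respectively, 9 of 10 and 9 of 10 Kupffer markers were at least 2-fold below the other libraries, and in library 4 8 of 10 were above. Among endothelial genes, the scaffold protein Ehd3 was at 54.7, 66.6, 120.3, 160.4 and 43.8 CPM, the water channel Aqp1 at 35.6, 66.9, 117, 148 and 25.1 CPM and the VEGF receptor Kdr at 32.9, 47.9, 84.1, 122 and 38.3 CPM. The scavenger receptor Stab2 and the lectin Clec4g ran from 7.65 to 22.2 and 22.3 to 92.8 CPM. In library 4, 11 of 12 endothelial markers were above, in library 3 8 of 12, and in library 5 8 of 12 were below. The endothelial to Kupffer ratio was 1.34 to 1.47 in libraries 1, 3, 4 and 5 and 0.708 in library 2.

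Other cell types gave lower sums, and several of their defining markers had few or 0 counts. Stellate cell and fibroblast markers summed to 123, 133, 136, 165 and 77.3 CPM, of which the proteoglycan Dcn gave 52.99 ± 10.8 CPM and the matrix protein Ecm1 23.2 ± 6.29 CPM. The stellate retinol enzyme Lrat was at 4.89 ± 1.69 CPM, the collagen Col1a1 at 0.868 ± 0.733 CPM and the contractile marker Acta2 at 0.139 ± 0.171 CPM. Of the bile duct markers, Sox9 was at 37.3 ± 7.39 CPM and gave most of a sum of 56.5 ± 9.09 CPM, while the defining epithelial genes Krt19 and Epcam were at 0.0524 and 0.0579 CPM and Krt7 had 0 counts. Lymphocyte markers summed to 13.5 ± 5.36 CPM, most of it the pan-leukocyte gene Ptprc at 9.11 ± 5.34 CPM, and the T cell genes Cd8a, Cd8b1 and Trac and the cytotoxic gene Gzmb had 0 counts. Neutrophil markers summed to 7.72 ± 5.51 CPM, with S100a8 at 0.440 ± 0.325 CPM and 0 counts for Ly6g, Camp and Mpo. Erythroid markers ran from 13.3 to 55.8 CPM, with the globin Hba-a1 at 1.33, 4.47, 10.6, 8.49 and 2.99 CPM. In a single library 3 counts correspond to 0.369 to 0.598 CPM, so means under that level rest on a few tags.

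**Figure D5:**
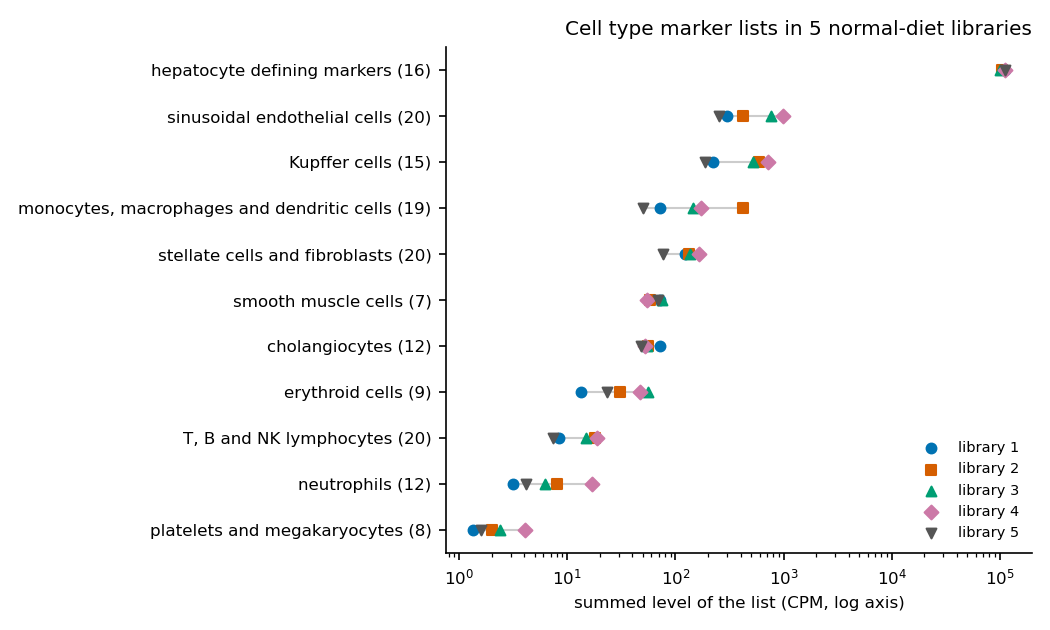
Summed level of cell type marker lists (CPM, log axis) in the 5 libraries, with the number of markers in the table in brackets. The hepatocyte sum lies between 100361 and 112502 CPM, Kupffer and endothelial sums between 187 and 978 CPM with libraries 1 and 5 lowest, and lymphocyte, neutrophil and platelet sums far lower.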

How the data were processed

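The authors deposited raw read counts per gene symbol for the whole series, made from QuantSeq 3' libraries. FastQC, cutadapt, STAR 2.7.1a and build GRCm39 are named in the submitters' processing notes, and no counting tool or annotation is given in the sources used here. Only the 5 normal-diet columns were used, and 20 mapped columns of the other groups were left out. Totals ran from 5281143 to 7985100 counts, and a 0 allows up to 3 counts, which covers counting error only. Counts were scaled to CPM with TMM factors (edgeR 4.0.16, R 4.3.3), from 0.950 to 1.05. Means, SDs and CVs were taken over the 5 libraries, and no difference was tested because all belong to one group, with Dixon's value used only to pick out values for a closer look. In simulated counts with a true biological CV of 0.15 and 0.6, the CV beyond counting error had medians of 0.134 and 0.528, both below the true value. The gene-wise value of edgeR was pulled to 0.172 and 0.337. Gene CVs are therefore given unshrunken, but they include counting error, unlike the value checked in the simulation. Alternatives were library size alone, DESeq2 1.42.0 size factors, other level filters, thinned counts and each library left out. The gene lists and the members were chosen with earlier results of these data known. Named genes were those of largest share, of largest and smallest CV, the top and most variable of each list, undetected list members and the 6 highest per library. Outside that rule, and after their values were seen, Acaca, Arntl, Asgr1, Clec4f, Clock, Col1a1, Cyp2a5, Dbp, Epcam, Fos, Irgm2, Khk, Krt19, Me1, Per2, Psmb8 and Stab2 were named. A few genes that the rule names are not reported here.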

Additional observations from a re-analysis of the deposited data

Results flagged for a closer look

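A library was singled out for a gene when it was the highest or lowest and its gap to the nearest other library was more than 0.71 of the whole range (Dixon's 95% value for 5 samples). For normally distributed values chance gives such a gap about once in 20 groups. Here the rule was applied to CPM without a log, so that rate need not hold. Among the 5946 genes at 10 CPM or more 5.67% had such a gap, in each library more often as the highest than as the lowest. Of the 132 named genes at 1 CPM or more 30 did, but many were named because they vary, so this share says nothing of its own. All values are CPM, with the range of the other 4 libraries after each.

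Library 3 was the high one for Scd1 (11827 against 3155 to 4867), Rgs16 (103 against 0.738 to 23.6), Elovl6 (503 against 85.1 to 117), Thrsp (1832 against 272 to 462) and Srebf1 (238 against 31.4 to 84.3). It was also high for Fasn (1189 against 226 to 314), Acaca (100.2 against 25.8 to 32.2), Acly (745 against 185 to 309), Me1 (225 against 98.1 to 117) and Tkfc (672 against 167 to 183), and for Khk (539.6 against 186 to 218), Abcg5 (76.97 against 16.8 to 28.9) and Mfsd2a (102 against 9.60 to 27.5). It was the low one for Msmo1 (65.02 against 182 to 209) and Hamp (290.2 against 623 to 703). The summed fatty acid synthesis list stood apart in the same way at 19681 CPM, as did the glucose and fructose list at 19521 CPM; these were 2 of 41 lists.

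Library 2 was the high one for H2-Aa (149 against 8.17 to 42.95), H2-Ab1 (95.4 against 8.37 to 27.8), H2-Eb1 (86.9 against 5.58 to 20.9) and Igtp (82.6 against 11.95 to 24.1), and for Irgm2 (56.7 against 13.8 to 24.98), Psmb8 (73.7 against 24.6 to 33.9) and Saa2 (132 against 11.8 to 39.7). Library 5 was high for mt-Rnr2 (123594 against 58172 to 75097), mt-Rnr1 (51394 against 26918 to 33123), Ass1 (1178 against 571 to 711) and Cyp17a1 (71.1 against 10.98 to 17.1), and its share of counts in the mitochondrial ribosomal RNAs, 16.6%, stood above 8.90 to 10.6%. Library 4 was high for Ahsg (13243 against 11147 to 11339), Mt2 (29.3 against 8.06 to 11.4) and Gadd45g (181 against 21.9 to 66.7). Library 1 was high for Tbx3 (53.6 against 3.89 to 15.3).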

How the results depend on the processing

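Values are called stable here if they moved by less than 1 SD, or for counts and CVs by less than 1.5 times. Without the mitochondrial ribosomal RNAs the mitochondrial share was 13.3%. Of nuclear-encoded counts alone, the 10 most abundant genes held 21.6%, and 137 genes on average sufficed for 50%. Genes at least 4-fold apart numbered 908 from 1 CPM and 20 from 100 CPM, and 67 to 90 with a library left out. With all genes of 1 count or more the median biological coefficient of variation was 0.271. Without its most abundant member, the marker sum was 50204 CPM for hepatocytes, 73.8 for stellate cells, 19.2 for cholangiocytes, 4.34 for lymphocytes, 1.48 for neutrophils, 1.10 for platelets and 1.14 for smooth muscle. The mitochondrial share was 22.05 to 24.1% and the median CV 0.130 to 0.141 over the libraries left out in turn. Of the counts of genes or list members at least 2-fold from the other libraries, 23 were recomputed under library size alone and DESeq2 size factors. All 23 stayed within 1.5 times, and both settings were added for these counts after the data were seen. The remaining counts, among them those of the glucose and fructose, periportal and acute phase lists, were not recomputed. Scaling by library size moved the CV of 5 of 140 named genes, and leaving out library 3 that of 23. No paired analysis was possible because the data hold a single group. From 1 to 10 CPM counting error made up 51.3% of the variance between libraries, which limits what this depth shows of low genes.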

Other observations

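Genes often used as references for expression were not equally steady in these libraries. The 20 listed genes had a median CV of 0.108 over the 18 at 10 CPM or more, against 0.139 over all genes. Sdha, a complex II subunit, was at 276, 272, 282, 268 and 247 CPM in libraries 1 to 5, beta-actin Actb at 1515, 1670.2, 1696, 1436 and 1528 CPM and the class I light chain B2m at 3604, 3891, 3435, 3195 and 3450.5 CPM. Gapdh, of glycolysis, was at 88.3, 111, 151, 102 and 87.3 CPM and highest in library 3. The elongation factor Eef1a1 was at 147, 51.2, 63.5, 61.5 and 145 CPM, with libraries 1 and 5 well above 2, 3 and 4, and the transferrin receptor Tfrc at 14.3, 24.5, 31.3, 13.7 and 15.5 CPM, with 2 and 3 above the rest. Eef1a1 has many processed copies in the genome, so its count is uncertain.

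Some further genes, among them regulators and a transporter, also spread widely. Cyp26b1, which breaks down retinoic acid, was at 5.82, 46.8, 30.01, 11.7 and 4.38 CPM, with libraries 2 and 3 above the rest. The transcription factor Onecut1 was at 9.32, 2.31, 19.7, 19.4 and 5.98 CPM, with libraries 3 and 4 nearly equal and highest. The lysolipid transporter Mfsd2a was at 16.3, 23.7, 102, 9.60 and 27.5 CPM, far highest in library 3.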
